A study of Mus musculus with 6 samples.

Results

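Kinesins and centromere proteins are the motors and the attachment sites of chromosome segregation, and 61 of the 11644 genes in the table belong to them. They were taken by gene symbol, as all names beginning with Kif followed by a digit or c, or with Cenp, together with the NDC80 complex genes, Ska1 to Ska3, Knstrn and Incenp. The rule reads names and no measured value, although it was written with earlier results of these data known. The 61 are 32 kinesins, 28 centromere and kinetochore genes, and Kif1bp, which is named for binding a kinesin and is not a motor itself. RNA was compared between mouse MLL-ENL/NrasG12D leukemia cells held for 72 h in 5 µM EPZ 015666, an inhibitor of the arginine methyltransferase PRMT5, and the same cells given its solvent DMSO. Both were given again on day 2, and each group has 3 libraries. Both groups carry the MLL-ENL fusion and the NrasG12D oncogene, so neither is a normal blood cell, and the labels name a single cell type, MLL-fusion leukemia cells, without saying how many clones it covers. The design text calls the replicates independent but ties none to a culture, so p-values measure the spread between these 6 libraries, which may be technical.

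Kinesins are ATP-driven motors that walk along or remodel microtubules. A set of them works in dividing cells, where they push spindle poles apart, align chromosomes and build the midzone that guides cytokinesis, whereas others carry vesicles, mitochondria and membrane proteins in cells of any phase. Chromosomes are attached to the spindle by the kinetochore. Its inner layer, the constitutive centromere-associated network, sits on nucleosomes that hold the histone variant CENP-A, and its outer layer, with the NDC80 and SKA complexes, grips the microtubule ends. RNA of many genes of the mitotic machinery is highest in G2 and mitosis. In bulk RNA, fewer cells in those phases and less RNA per cell thus cannot be told apart here.

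Recovered reads per library ran from 11335948 to 19197912, lowest in inhibitor library 2. The myeloid identity of the cells was checked by the leukocyte gene Ptprc (6899.8 and 6867 normalized counts in DMSO and inhibitor means) and the myeloid factor Spi1 (2148 and 2520.0). Of 16 marker genes of T, B, red, platelet, epithelial, stromal and endothelial cells, 12 were not analysed here because no row carried their name, and of the other 4 Itga2b, Epcam and Cdh5 were low, with a summed level of 17.9 to 20.2 normalized counts in DMSO and 43.3 to 68.9 with the inhibitor. Itga2b (4.38-fold, limma adjusted p = 0.00145) and Epcam (3.50-fold, 0.0153) rose, and the part of either in the results was not tested. With Pecam1, which leukocytes also express, the sum was 3016 to 3642 and 3626 to 4026. Of 6 measured blood cell markers 3 (Itgam, Csf1r and Spi1) rose, 1 (Mpo) fell and 2 (Ptprc and Kit) did not pass. Mpo had 1438, 371 and 731 in DMSO and 408, 292 and 327 with the inhibitor, groups that overlapped (limma adjusted p = 0.0215). Kit had means of 831 and 687 (limma adjusted p = 0.0809). The myeloid maturation markers Itgam and Csf1r rose 3.79-fold and 3.17-fold (limma adjusted p = 5.44e-08 and 3.90e-08), so the group difference below goes together with a difference in maturation markers, whose part in it was not tested. DMSO library 2 stood apart from the other DMSO libraries in stress genes, with Trib3 at 126, 1376 and 218 and Ddit3 at 171, 1378 and 237 in DMSO libraries 1, 2 and 3. It was also the lowest DMSO library for 12 of the 13 mitotic kinesins and for 39 of the 61 genes, and inhibitor library 3 was the lowest inhibitor library for 9 of the 13.

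Most of the genes that changed were lower with the inhibitor. Normalized counts (each library's reads over its size factor) were compared with limma on the log2(normalized count + 1) scale, adjusted over all 11644 genes, with a threshold of 0.05; folds are ratios of group means and log2 changes carry the limma SE. Where a pair of values is given for a gene, the first is the mean normalized count in DMSO and the second that with the inhibitor. Of the 61 genes 33 fell, 7 rose and 21 did not pass, which is 54.1% falling against 22.9% of all genes in the table and 11.5% rising against 23.6% of all genes. The median log2 fold change was -0.33 over the 61 genes and 0.00 over all genes. In 36 genes all inhibitor libraries lay below all DMSO libraries (27.9% of all genes) and in 10 they lay above (28.2%; both directions together, 56.0% of all genes). edgeR on the recovered reads found 34 fallen (24.2% of all genes) and 5 risen (22.3%). Without DMSO library 2, which stood apart, 34 fell and 6 rose; without inhibitor library 1 or without inhibitor library 2, 4 genes rose in place of 7.

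**Figure D1:**
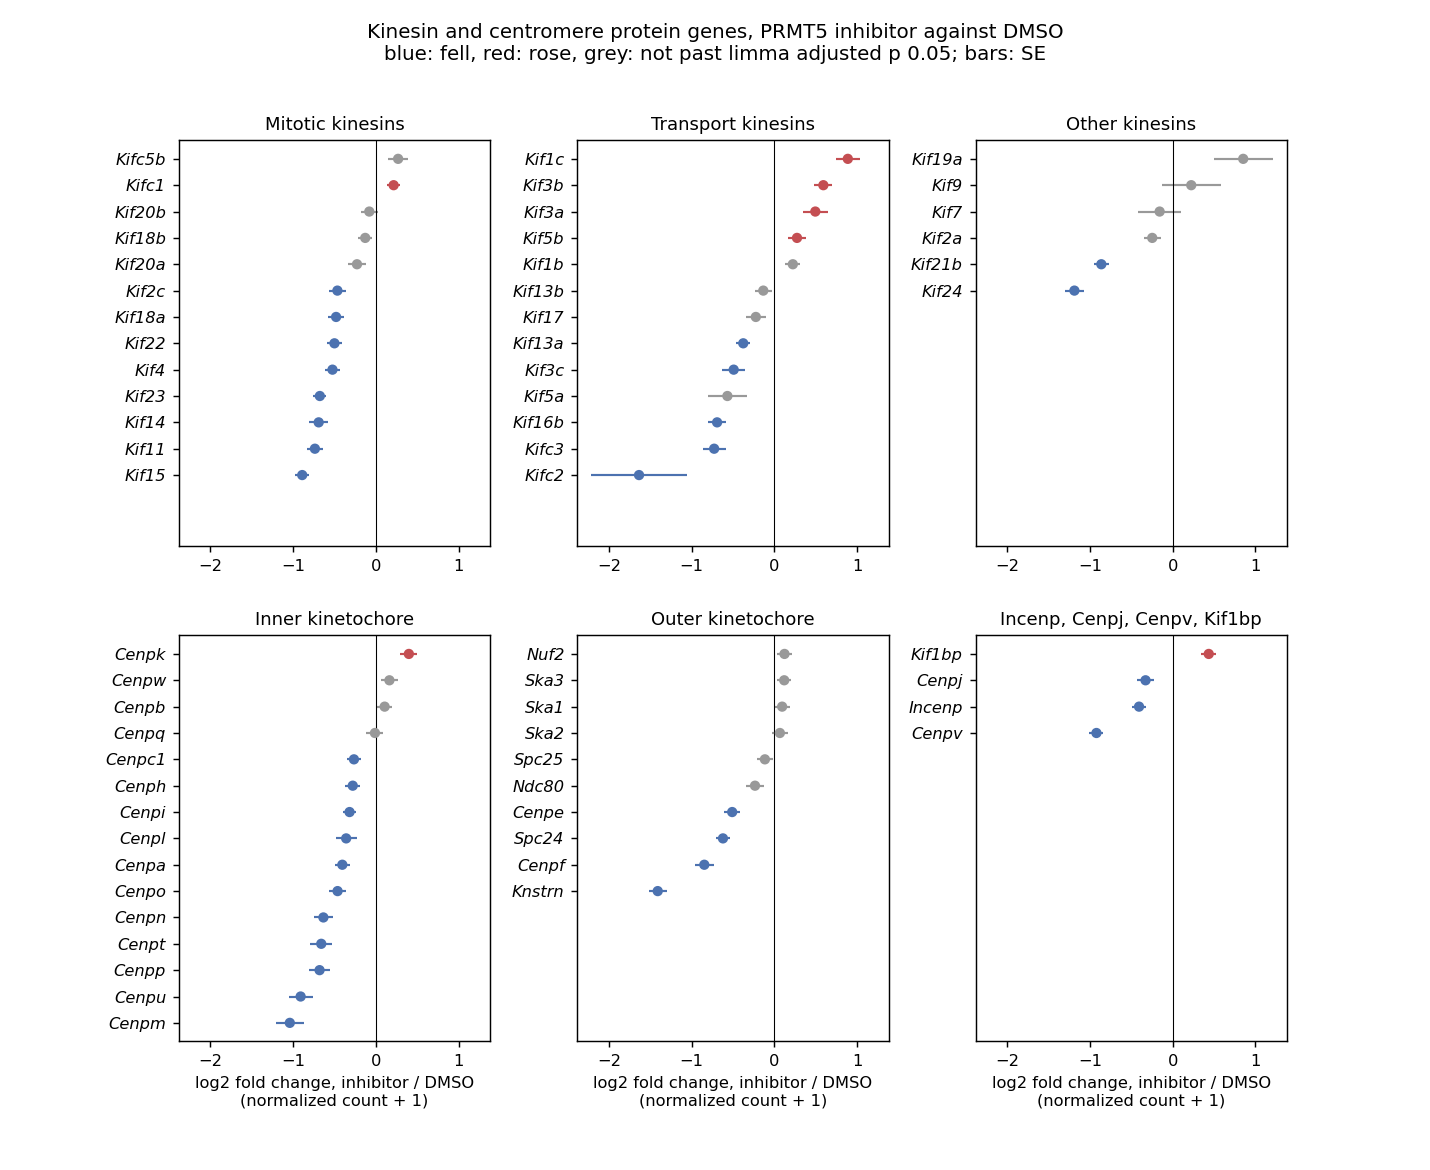
Log2 fold change of each of the 61 genes, inhibitor over DMSO, on the log2(normalized count + 1) scale, with limma SE bars, in 6 panels by role. Blue points fell, red points rose and grey points did not pass an adjusted p of 0.05; Knstrn, at -1.41, and Kif24, at -1.19, lie farthest left apart from the low-count Kifc2.

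Most motors of the spindle fell, and 1 rose. Of 13 measured mitotic kinesins 8 fell (61.5%, against 22.9% of all genes), Kifc1 rose (7.69%, against 23.6%) and 4 did not pass. Their median log2 fold change was -0.48. Kif15 (chromosome 9, 122951046 to 123018733, plus strand; build GRCm38, that of mm10, for all positions), a kinesin that helps to hold spindle poles apart, stood at 3991, 3510.0 and 3895 normalized counts in DMSO libraries 1, 2 and 3 and at 2129.8, 2056 and 1955 with the inhibitor. All 3 inhibitor values lay far below the DMSO values, a 1.86-fold fall in the mean (log2 fold change -0.89 ± 0.08 SE, limma adjusted p = 7.58e-06). Kif11 (chromosome 19, 37376403 to 37421859, plus strand), the Eg5 motor that separates the poles and is the target of several mitotic inhibitors, had 7236, 6537 and 6744 in DMSO and 4546, 4212 and 3599 with the inhibitor. Its groups did not overlap either, and its mean fell 1.66-fold (log2 fold change -0.74 ± 0.10 SE, limma adjusted p = 1.15e-04).

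Among kinesins of the midzone and of cytokinesis, Kif23 and Kif14 fell. Kif20a and Kif20b, also with negative log2 changes (-0.23 and -0.08), did not pass. Kif23, the MKLP1 motor of the centralspindlin complex, had 2091, 1983 and 2055 in DMSO and 1371, 1219 and 1246 with the inhibitor, a fall of 1.60-fold (limma adjusted p = 4.39e-05). Kif14, which recruits citron kinase to the cleavage site, had 982, 829 and 1086 in DMSO and 672, 566 and 551 with the inhibitor (a fall of 1.62-fold, limma adjusted p = 5.04e-04). The inhibitor libraries lay below the DMSO libraries for both genes. Kif20a, the MKLP2 motor that brings the chromosomal passenger complex to the midzone, had group means of 2426 and 2072 with overlapping libraries (limma adjusted p = 0.107). Its relative Kif20b had 2264 and 2151 (limma adjusted p = 0.550). With DMSO library 2 or inhibitor library 1 set aside, Kif20a passed (limma adjusted p = 0.0249 and 0.0291). Of the exonic length of Kif20a 29.3% overlaps the opposite-strand gene Cdc23.

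Kif18a, Kif4, Kif22 and Kif2c, picked here from the mitotic kinesins for their parts in chromosome movement or attachment, fell. They are 4 of the 8 mitotic kinesins that fell, among 13 measured. Kif18a, which damps chromosome movements at the metaphase plate, had 782, 698 and 731 in DMSO and 516, 590.1 and 482 with the inhibitor (log2 fold change -0.48 ± 0.10 SE, limma adjusted p = 0.00203), a separation of the groups by about the distance between the inhibitor libraries. The chromokinesins Kif4 (mean 1863 to 1298) and Kif22 (1256 to 888), which bind chromosome arms, and Kif2c (1365 to 988), the MCAK depolymerase that corrects wrong attachments, fell with log2 changes of -0.52, -0.50 and -0.46 (limma adjusted p = 7.55e-04, 8.71e-04 and 0.00273). Exons of Kif4 overlap the opposite-strand gene Pdzd11 over 15.1% of their length. Kif18b, a depolymerase of astral microtubules, had 1026 and 939 and did not pass (limma adjusted p = 0.226), although its inhibitor libraries all lay below its DMSO libraries.

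Kifc1, the minus-end motor that focuses spindle poles and clusters extra centrosomes, went the other way. It had 941, 859.7 and 881 in DMSO and 1055, 1011 and 1045 with the inhibitor, groups that did not overlap, with a log2 fold change of 0.22 ± 0.08 SE just inside the threshold (limma adjusted p = 0.0432). No call was left when any of the 6 libraries was set aside (limma adjusted p = 0.0521 to 0.125), nor with edgeR (adjusted p = 0.0591), DESeq2 (0.0750) or values rescaled by TMM factors (0.0615). Its near-copy Kifc5b had 390.0 and 469.5 (limma adjusted p = 0.0922), and passed with DMSO library 3 set aside (0.0352). The longest Kifc1 transcript shares 33.5% of its 75-base windows with transcripts of Kifc5b, so reads of this pair cannot be assigned with certainty.

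The sequences upstream of several of these genes hold letters known from cell cycle promoters. The cell cycle homology region (CHR), TTTGAA, is bound by the DREAM and MuvB complexes, and CCAAT is bound by NF-Y. The search covered the 250 bases before the RefSeq start (build GRCm38.p6) on both strands, with TTCAAA and ATTGG as the reverse complements. A promoter window within 100 bases of a principal GENCODE transcript start was found for 42 of the 61 genes. TTTGAA was in 4 of 10 mitotic kinesin windows (Kif11, Kif14, Kif15 and Kif22, all of which fell), in 0 of 7 transport kinesin windows and in 8 of the 42, against 10.4% of 7420 table genes and 14.1% of all 15598 such windows. Of the members with a window, 6 of the 23 that fell and 2 of the 14 that were not called (Cenpw and Ska3) held TTTGAA, as did 0 of the 5 that rose, and the fallen mitotic kinesins Kif18a and Kif23 did not. RefSeq and GENCODE starts differ: the Kif14 window begins inside the GENCODE gene, and the last 35, 51, 28 and 3 bases of the Kif15, Kif22, Kifc1 and Kif3b windows lie inside it, with the CHR matches nearest the start in Kif15 and Kif22. CCAAT was in 7 of the 10 mitotic and 2 of the 7 transport kinesin windows and in 37.3% of the table genes. By call, it was in 10 of the 23 members that fell, 5 of the 14 not called and 4 of the 5 that rose. The E2F-type letters GGCGGGAA were in 1 of the 42 windows (Cenpc1) and in 3.75% of the table genes. A match is a description, not a binding site. Capitals mark CHR and CCAAT letters in the 250 bases before the start of 3 fallen spindle motors, whose last CHR match begins 19, 19 and 17 bases before the start, and, as a contrast, of Kifc1 and the transport kinesin Kif3b, both of which rose and hold CCAAT letters and no CHR letters:
Kif11 (chr19:37376132-37376381, plus strand): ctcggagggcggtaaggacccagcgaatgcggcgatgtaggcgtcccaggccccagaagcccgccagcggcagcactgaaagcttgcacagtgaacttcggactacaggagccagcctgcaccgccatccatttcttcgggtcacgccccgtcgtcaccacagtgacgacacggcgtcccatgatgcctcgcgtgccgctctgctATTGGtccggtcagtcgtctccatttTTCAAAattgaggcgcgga
Kif15 (chr9:122950831-122951080, plus strand): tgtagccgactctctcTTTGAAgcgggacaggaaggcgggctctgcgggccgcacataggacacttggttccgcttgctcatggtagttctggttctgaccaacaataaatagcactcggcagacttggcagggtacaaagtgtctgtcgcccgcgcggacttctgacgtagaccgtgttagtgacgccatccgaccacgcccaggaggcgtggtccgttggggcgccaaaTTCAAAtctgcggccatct
Kif22 (chr7:127042421-127042670, minus strand): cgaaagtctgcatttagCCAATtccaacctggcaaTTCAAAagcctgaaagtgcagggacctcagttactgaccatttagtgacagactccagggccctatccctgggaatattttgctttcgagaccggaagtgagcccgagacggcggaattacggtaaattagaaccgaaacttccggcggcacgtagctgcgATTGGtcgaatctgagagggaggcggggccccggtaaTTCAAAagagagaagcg
Kifc1 (chr17:33890634-33890883, minus strand): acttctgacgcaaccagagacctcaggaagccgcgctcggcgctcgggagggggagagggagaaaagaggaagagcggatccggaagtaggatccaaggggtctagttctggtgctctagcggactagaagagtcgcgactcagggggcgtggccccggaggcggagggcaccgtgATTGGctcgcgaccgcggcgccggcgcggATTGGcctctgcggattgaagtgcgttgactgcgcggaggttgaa
Kif3b (chr2:153291166-153291415, plus strand): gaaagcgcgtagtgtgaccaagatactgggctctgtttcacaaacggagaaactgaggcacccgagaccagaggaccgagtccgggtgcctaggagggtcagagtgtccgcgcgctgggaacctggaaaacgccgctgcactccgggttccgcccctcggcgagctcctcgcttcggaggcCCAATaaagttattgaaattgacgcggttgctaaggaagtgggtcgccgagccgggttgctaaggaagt

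Of 13 measured transport kinesins 5 fell, 4 rose and 4 did not pass, which is 38.5% falling against 22.9% of all genes and 30.8% rising against 23.6%, with a median log2 fold change of -0.22. In either direction 69.2% were called, against 46.5% of all genes. The set holds few genes, and its shares were not tested against those of the table. Kif1c (chromosome 11, 70700548 to 70731964, plus strand), a fast motor of vesicles that is also found at podosomes of macrophages, had 203, 309 and 237 normalized counts in DMSO and 504, 454 and 414 with the inhibitor. All inhibitor libraries lay above all DMSO libraries, of which library 2 was the highest, and the mean rose 1.83-fold (log2 fold change 0.89 ± 0.15 SE, limma adjusted p = 4.88e-04). Kif3a and Kif3b, the motor subunits of heterotrimeric kinesin-2, both rose. The gene of its adaptor subunit, Kifap3, had 117 and 86.4 and did not pass (limma adjusted p = 0.0532). Kif3b had 293, 375 and 315 in DMSO and 480.1, 491 and 505 with the inhibitor (log2 fold change 0.59 ± 0.11 SE, limma adjusted p = 9.98e-04). Kif3a had 158, 124 and 122 in DMSO and 202, 207 and 160.3 with the inhibitor (1.41-fold, limma adjusted p = 0.0197). Neither gene's groups overlapped, but Kif3a had a limma adjusted p of 0.0714 with DMSO library 3 set aside, and of 0.0648 and 0.0914 with inhibitor library 1 and 2 set aside.

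Kif3c, the alternative partner of Kif3a, fell from 151 ± 9.71 to 108 ± 12.2 (SD, n = 3 per group; limma adjusted p = 0.0143). The ratio of Kif3b to Kif3c normalized counts was 1.99 to 2.40 in the DMSO libraries and 4.16 to 5.24 in the inhibitor libraries. With DMSO library 3 or inhibitor library 2 set aside, Kif3c no longer passed (limma adjusted p = 0.0539 and 0.0679). Kif5b (chromosome 18, 6201002 to 6242174, minus strand), the ubiquitous heavy chain of conventional kinesin, had 5495, 5963 and 5357 in DMSO and 7426, 7139.9 and 5856 with the inhibitor. Its groups overlapped, since inhibitor library 3 lay below DMSO library 2, and its log2 fold change of 0.27 ± 0.10 SE barely passed (limma adjusted p = 0.0463). It no longer passed with DMSO 1 or 3 or inhibitor 1 or 2 set aside (limma adjusted p = 0.117, 0.143, 0.134 and 0.169), with edgeR (adjusted p = 0.0626) or with TMM rescaling (0.0623). Kif1b, a motor of mitochondria and synaptic vesicle precursors, had 539.7, 544 and 580.3 in DMSO and 686, 669.8 and 591 with the inhibitor. Its groups did not overlap, but it did not pass (limma adjusted p = 0.0661) unless inhibitor library 3 was set aside (0.0275).

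The 5 transport kinesins that fell include motors of endosomes and of the Golgi. Kif16b, which moves early endosomes, had 444, 479.5 and 498 in DMSO and 329, 291 and 262 with the inhibitor, without overlap (1.61-fold lower, log2 fold change -0.69 ± 0.11 SE, limma adjusted p = 3.87e-04). Kifc3, a minus-end motor of the Golgi and of cell junctions, went from 268 ± 23.6 to 162 ± 26.7 (limma adjusted p = 0.00127). Kif13a, a carrier of recycling endosomes, went from 1066 ± 36.1 to 822 ± 48.8 (SD, n = 3 per group; limma adjusted p = 0.00301). Kifc2 fell on few reads, with 41 reads over the DMSO libraries and 10 over the inhibitor libraries, and its call (limma adjusted p = 0.0353) did not outlast setting aside DMSO 1 or 3 or inhibitor 1 or 2 (0.0726, 0.138, 0.110 and 0.0883), or DESeq2 (0.0919). Kif13b had 530.1 and 482 and Kif17 462 and 395, and neither passed (limma adjusted p = 0.306 and 0.140). Kif5a was low, at 44.7 and 29.7, with a limma adjusted p of 0.0658 that passed with DMSO library 2 set aside (0.0355). Of the transport kinesin calls, 3 falls in place of 5 were left without DMSO library 3 or inhibitor library 2, and 2 rises in place of 4 without DMSO library 3 or inhibitor library 1 or 2.

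Set side by side, mitotic and transport kinesins had the same share of changed genes, 9 of 13 (69.2%, against 46.5% of all genes). The mix of directions was not the same. Of these calls, that of the mitotic Kifc1 and those of the transport kinesins Kif5b, Kif3a, Kif3c and Kifc2 did not hold under all alternatives run. The mean of the log2 values over the 13 mitotic kinesins, relative to the mean of the DMSO libraries, was 0.06, -0.10 and 0.04 in DMSO libraries 1, 2 and 3 and -0.28, -0.40 and -0.45 with the inhibitor. For the 13 transport kinesins it was -0.03, -0.05 and 0.08 in DMSO and -0.18, -0.23 and -0.14 with the inhibitor. Inhibitor libraries were thus lower for both sets, and the mitotic minus transport difference averaged -0.20 over the inhibitor libraries (-0.10, -0.18 and -0.31, against 0.09, -0.05 and -0.04 in DMSO). The groups did not overlap, and no p is given for a mean over chosen genes. Without Kifc2 and Kif5a, the transport kinesins under a mean of 100 normalized counts, the transport value was 0.07, -0.04 and -0.08 with the inhibitor, which overlaps the DMSO range of -0.03 to 0.02. With that minimum of 100 the mitotic minus transport difference was -0.36.

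**Figure D2:**
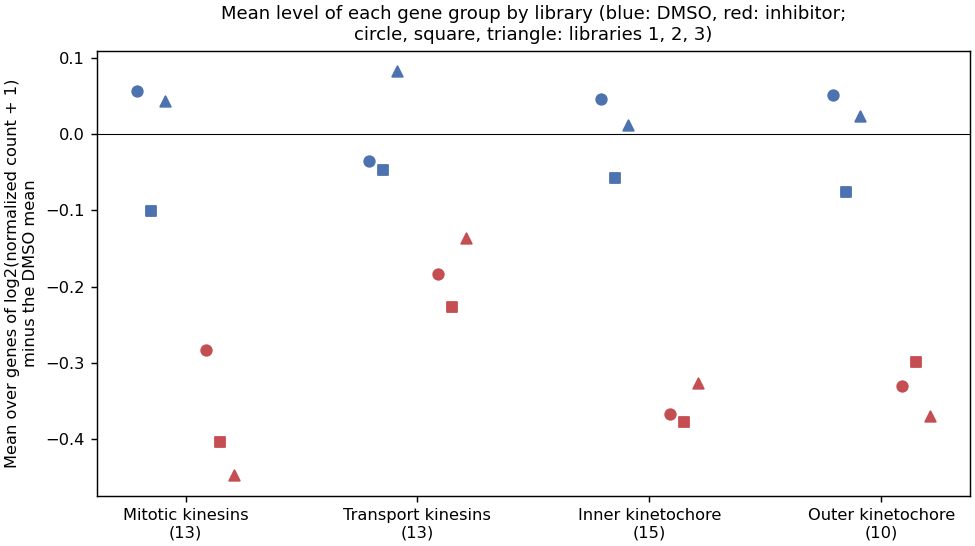
Mean over the genes of each group of log2(normalized count + 1), relative to the mean of the DMSO libraries (y axis), for each of the 6 libraries; blue is DMSO, red is the inhibitor, and the symbols give libraries 1 to 3. The mitotic kinesins lie between -0.28 and -0.45 in the inhibitor libraries and the transport kinesins between -0.14 and -0.23.

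Levels of different genes were compared per kilobase of exon (GENCODE mouse release 21, union of all exons). In DMSO the order of the kinesins was led by Kif11 with 917 ± 48.1 normalized counts per kb, followed by Kif5b with 702 ± 39.8 and Kif20a with 559 ± 65.0 (SD, n = 3), steps larger than the SD of each gene. The next group, Kif15 (345 ± 23.1), Kif4 (338 ± 18.9), Kif20b (325 ± 23.6) and Kif2c (313 ± 32.3), did not differ beyond their spread. With the inhibitor Kif5b came first, with 853 ± 105 per kb, ahead of Kif11 with 552 ± 64.4. In every library of DMSO Kif5b was below Kif11 in normalized counts, at 0.76 to 0.91 of it, and in every inhibitor library above it, at 1.63 to 1.70 of it. Summed per kb, mitotic kinesins went from 3855 to 4356 in the DMSO libraries to 2940.3 to 3393 in the inhibitor libraries. The summed transport kinesins were 1251 to 1306 and 1269.7 to 1499, of which Kif5b made 53.6% or more in every library; without it they were 558.5 to 581 and 536 to 569, ranges that overlap.

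**Figure D3:**
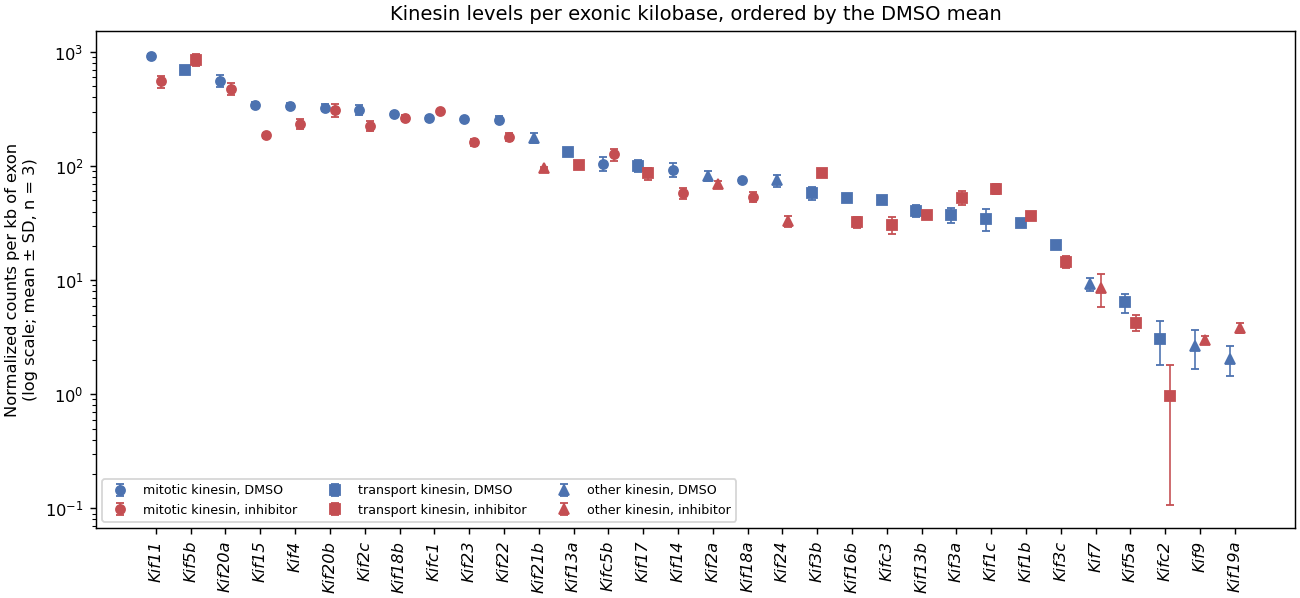
Normalized counts per exonic kilobase (log y axis, mean ± SD, n = 3) of the 32 kinesins in order of the DMSO mean, blue for DMSO and red for the inhibitor; circles are mitotic, squares transport and triangles other kinesins. The 11 highest kinesins in DMSO are mitotic apart from Kif5b, and Kif5b and Kif11 exchange the lead.

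Among 6 kinesins with other roles, 2 fell by a large amount (33.3%, against 22.9% of all genes) and 4 did not pass. Kif24 (chromosome 4, 41390745 to 41464887, minus strand), a depolymerase that caps the mother centriole and holds back cilium formation, had 577, 543 and 678 in DMSO and 229, 278 and 279.8 with the inhibitor, so that every inhibitor library lay far below the lowest DMSO library. Its fall of 2.29-fold (log2 fold change -1.19 ± 0.12 SE, limma adjusted p = 1.42e-05) was larger than that fitted for any mitotic kinesin. Kif21b, a regulator of microtubule growth known from neurons and lymphocytes, had 1893, 2268 and 2302 in DMSO and 1166, 1161 and 1211 with the inhibitor, a fall of 1.83-fold (limma adjusted p = 1.87e-05) with close inhibitor libraries. Kif2a, a depolymerase at spindle poles and in neurons, had 527 and 442 and did not pass (limma adjusted p = 0.0690), although its groups did not overlap. With DMSO library 1 set aside its limma adjusted p was 0.0490, and with edgeR it lay just inside the threshold. Its exons overlap the opposite-strand gene Dimt1 over 19.2% of their length. The cilium-associated Kif7, Kif9 and Kif19a were low, with means of 42.6 and 39.2, 11.4 and 12.9 and 8.35 and 15.5 in DMSO and inhibitor, and did not pass. No kinesin of this group rose by limma, edgeR or DESeq2, and 1 (Kif19a) had an unadjusted limma p under 0.05 upward. Kif1bp, which binds several kinesins and keeps them off microtubules, rose from 485 ± 22.8 to 656 ± 40.6 (SD, n = 3 per group; limma adjusted p = 0.00220).

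Of 15 measured inner kinetochore genes 11 fell (73.3%, against 22.9% of all genes), Cenpk rose (6.67%, against 23.6%) and 3 did not pass. Their median log2 fold change was -0.36. Their mean log2 value, relative to the DMSO mean, was 0.05, -0.06 and 0.01 in DMSO libraries 1, 2 and 3 and -0.37, -0.38 and -0.33 with the inhibitor. Cenpa (chromosome 5, 30666777 to 30674830, plus strand), the histone H3 variant that marks centromeres, had 1983, 1767 and 1917 normalized counts in DMSO and 1319, 1391 and 1575 with the inhibitor. The inhibitor libraries lay below the DMSO libraries by more than either group's SD, and the mean fell 1.32-fold (log2 fold change -0.41 ± 0.09 SE, limma adjusted p = 0.00307). Cenpc1, for CENP-C, the protein that links CENP-A nucleosomes to the rest of the kinetochore, fell from 1142 ± 62.4 to 950.4 ± 47.9 (limma adjusted p = 0.0212), a call that setting aside DMSO 1 or 3 or inhibitor 2 or 3 ended (0.0655, 0.0918, 0.0600 and 0.0581). Cenpb, whose product binds a motif in centromeric satellite DNA, had 1654 and 1787 (limma adjusted p = 0.359).

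Within the CENP-H/I/K/M complex the subunits parted. Cenpm (chromosome 15, 82233779 to 82244748, minus strand) had 264, 215 and 238 in DMSO and 108, 93.7 and 151 with the inhibitor, a fall of 2.03-fold (log2 fold change -1.04 ± 0.17 SE, limma adjusted p = 4.93e-04). Cenpk (chromosome 13, 104228611 to 104252392, plus strand) had 377, 339 and 366 in DMSO and 427, 494 and 511 with the inhibitor, a rise of 1.32-fold (log2 fold change 0.40 ± 0.10 SE, limma adjusted p = 0.00797). Both genes had groups without overlap, and the ratio of Cenpk to Cenpm normalized counts was 1.43 to 1.58 in DMSO and 3.39 to 5.27 with the inhibitor. Cenpi fell from 803 to 644 (limma adjusted p = 0.00818) and Cenph from 426 to 351 (0.0281). Cenph no longer passed with DMSO 1 or 3 or inhibitor 2 or 3 set aside (limma adjusted p = 0.0824, 0.0945, 0.0647 and 0.0660), nor with DESeq2 (0.0645).

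Other arms of the network fell in most subunits. Cenpu, of the CENP-O/P/Q/U complex, which docks the mitotic kinase Plk1, had 175, 178 and 210.1 in DMSO and 110.3, 86.7 and 102 with the inhibitor (1.88-fold lower, limma adjusted p = 3.89e-04), without overlap. Cenpp (mean 237 to 148) and Cenpo (555 to 401) of the same complex fell too (limma adjusted p = 0.00112 and 0.00378), whereas Cenpq had 554 and 552 (limma adjusted p = 0.940). Exons of Cenpu, Cenpo and Cenpp overlap opposite-strand genes (Primpol, Adcy3 and Ippk) over 26.7%, 19.0% and 12.3% of their length, and the strand setting of the counting is not given in the sources used here. Cenpn, which reads the CENP-A nucleosome, fell from 472 to 304 and its partner Cenpl from 229 to 179 (limma adjusted p = 7.67e-04 and 0.0363). Cenpl no longer passed with DMSO 1 or 2 or inhibitor 1 or 3 set aside (0.102, 0.0792, 0.0509 and 0.116), nor with DESeq2 (0.0696). Cenpt, which recruits the NDC80 complex, fell from 313 to 199 (limma adjusted p = 0.00173), and its histone-fold partner Cenpw had 393 and 441 (0.195).

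Of 10 outer kinetochore genes 4 fell (40.0%, against 22.9% of all genes) and 6 did not reach the threshold. In either direction 40.0% of them were called, against 46.5% of all genes, and their median log2 fold change was -0.17. None rose by limma, edgeR or DESeq2, and none had an unadjusted limma p under 0.05 upward. Their mean log2 value, relative to the DMSO mean, was 0.05, -0.08 and 0.02 in DMSO and -0.33, -0.30 and -0.37 with the inhibitor. Log2 changes ran from -1.41 (Knstrn) to 0.12 (Nuf2), so this mean does not describe each gene. Knstrn (chromosome 2, 118814003 to 118853957, plus strand), which encodes a spindle and kinetochore protein also called SKAP, had the smallest adjusted p of the 61 genes. It stood at 1422, 1115 and 1305 in DMSO and at 439, 468 and 534 with the inhibitor, so that the highest inhibitor library was under the lowest DMSO library by more than the whole inhibitor range, and fell 2.67-fold (log2 fold change -1.41 ± 0.11 SE, limma adjusted p = 2.09e-06). Cenpf, a large protein of the fibrous corona that peaks in G2 and mitosis, had 3044, 2582 and 3526 in DMSO and 1818, 1752 and 1495 with the inhibitor (1.81-fold lower, limma adjusted p = 1.31e-04). Cenpe, itself a kinesin that carries chromosomes towards the spindle equator, had 3493, 3405 and 3679 in DMSO and 2757, 2519.8 and 2182 with the inhibitor (1.42-fold lower, limma adjusted p = 0.00103). The groups did not overlap for either gene.

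In the NDC80 complex, the rod that grips microtubules, 1 of 4 subunits fell (25.0%, near the 22.9% of all genes). Spc24, of the end that faces the chromosome, had 721, 689 and 712 in DMSO and 444, 449 and 486 with the inhibitor (1.54-fold lower, log2 fold change -0.62 ± 0.09 SE, limma adjusted p = 1.5e-04). Its binding partner Spc25 had 812 and 747 (limma adjusted p = 0.354). Ndc80, of the microtubule-binding end, had 1099.9, 1242 and 1048 in DMSO and 1023, 1061 and 811 with the inhibitor, groups that overlapped (log2 fold change -0.23 ± 0.11 SE, limma adjusted p = 0.106), and Nuf2 had 1582, 1266 and 1404 in DMSO and 1548, 1568 and 1497 with the inhibitor (limma adjusted p = 0.289). The ratio of Nuf2 to Spc24 normalized counts was 1.84 to 2.19 in DMSO and 3.08 to 3.49 with the inhibitor. Of the 3 SKA genes, whose complex tracks shrinking microtubule ends, Ska1 had 338 and 361, Ska2 505 and 530.3 and Ska3 545 and 592. None passed by limma (adjusted p = 0.439, 0.602 and 0.274), edgeR or DESeq2, and none had an unadjusted limma p under 0.05. The inhibitor libraries of Ska1 and Ska3 all lay above their DMSO libraries.

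**Figure D4:**
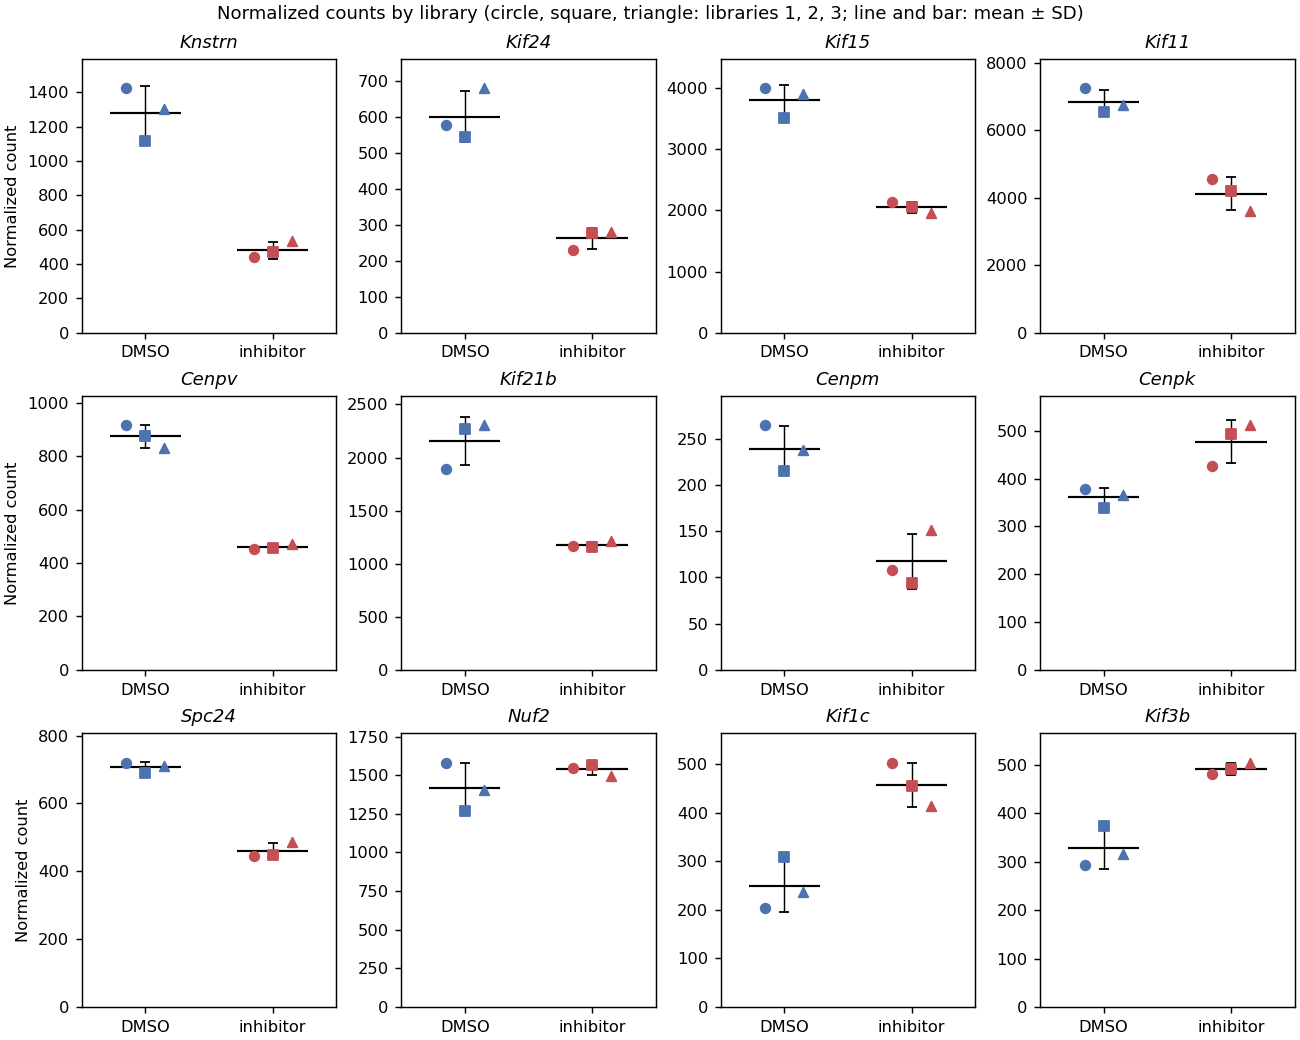
Normalized counts (y axis, from 0) of 12 genes in each library, DMSO in blue and inhibitor in red, with mean and SD; circles, squares and triangles are libraries 1, 2 and 3. Knstrn, Kif24, Kif15, Kif11, Cenpv, Kif21b, Cenpm and Spc24 separate downward, Cenpk, Kif1c and Kif3b upward, and Nuf2 overlaps.

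Incenp (chromosome 19, 9872296 to 9899551, minus strand), the scaffold that holds the kinase Aurora B at centromeres, had 3094, 2704 and 3129 in DMSO and 2363, 2141 and 2216 with the inhibitor, without overlap (log2 fold change -0.41 ± 0.09 SE, limma adjusted p = 0.00228). Cenpv (chromosome 11, 62524946 to 62539261, minus strand), whose product associates with microtubules and pericentromeric chromatin, had 916, 877 and 832 in DMSO and 454, 456 and 472 with the inhibitor. These libraries were close within each group, and the fall of 1.90-fold had the second smallest adjusted p of the 61 genes (log2 fold change -0.92 ± 0.08 SE, limma adjusted p = 7.26e-06). Cenpj, which is named for centromeres but sets the length of centrioles, fell from 489.8 ± 8.17 to 391 ± 46.1 (SD, n = 3 per group; limma adjusted p = 0.0218). Setting aside DMSO 1 or 3 or inhibitor 2 or 3 ended the call (0.0623, 0.0598, 0.0896 and 0.0674).

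Among genes that work with these proteins but carry other names, 21 kinetochore and centromere partners were measured. Of these 13 fell (61.9%, against 22.9% of all genes), 1 rose (4.76%, against 23.6%) and 7 did not pass. Their median log2 fold change was -0.35. Casc5, the KNL1 scaffold of the outer kinetochore, fell from 3346 ± 310.5 to 1795 ± 122 (limma adjusted p = 1.5e-05). Oip5, which helps to load CENP-A, fell from 367 ± 11.2 to 226 ± 12.2 (2.17e-04), and Itgb3bp, which encodes CENP-R, from 79.9 ± 3.51 to 26.0 ± 7.52 (2.23e-04; SD, n = 3 per group). The rise was that of Zw10 (1744 to 2589, limma adjusted p = 2.88e-04), of the complex that brings dynein to kinetochores. Its partners Zwilch (840.4 to 603) and Kntc1 (2345 to 1653) fell (limma adjusted p = 6.07e-04 and 4.94e-04). The table lists CENP-X and CENP-S under the older names Stra13 and Apitd1, of which Stra13 fell (429.9 to 250.4, limma adjusted p = 5.90e-04) and Apitd1 had 184 and 167 (0.545). Among 14 spindle and midzone partners 9 fell (64.3%, against 22.9% of all genes) and 5 did not pass. Racgap1, the partner of Kif23 in centralspindlin (2339.7 to 1498, limma adjusted p = 4.25e-04), Numa1 (6520.1 to 4632, 5.68e-04) and Anln (2382 to 1771, 9.03e-04) came first. None of the 14 rose by limma, edgeR or DESeq2, and none had an unadjusted limma p under 0.05 upward.

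The cargo adaptors and the dynein machinery had fewer calls. Of 21 measured kinesin light chain, adaptor, dynein and dynactin genes 2 fell, 3 rose and 16 did not pass, which is 23.8% called against 46.5% of all genes. Dctn3 (658 to 960.1, limma adjusted p = 0.00218) and Dync1i2 (1574 to 2106, 0.00299), subunits of dynactin and dynein, rose, and so did the light chain gene Klc2 (207 to 263, 0.0215). Dctn2 (1839 to 1542, 0.0179) and the mitochondrial adaptor Rhot2 (648 to 468, 0.0202) fell. Kifap3, the adaptor that joins Kif3a and Kif3b in kinesin-2, had 117 and 86.4 and did not pass (limma adjusted p = 0.0532). Without inhibitor library 2 none of this list fell by limma, and without DMSO library 3, 1 did.

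In gene structure, the genes that fell had a median of 18 exons in the transcript with most, against 16 in those that did not pass and 12 in those that rose, with overlapping ranges of 5 to 46, 1 to 49 and 8 to 26. Their median exonic length was 5634 bases, against 4338 and 5231; these differences were not tested. The 61 genes lie on 18 chromosomes. Neighbours within 1 megabase were only Kif21b and Kif14 on chromosome 1 (288345 bases apart) and Kif3c and Cenpo on chromosome 12 (789510 bases apart). All 4 fell, as did 54.1% of the 61 genes, and a link between position and change was not tested. Kif3c no longer passed without DMSO library 3 or inhibitor library 2 (limma adjusted p = 0.0539 and 0.0679).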

How the data were processed

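PolyA RNA was sequenced from stranded libraries of 3 DMSO and 3 inhibitor samples, named by the sample titles. The deposited signal is a table of normalized gene counts, for which the submitters' processing notes name DESeq 1.16.0, HTSeq 0.6.0, TopHat2 2.0.10, CASAVA 1.8.2 and build mm10, with no roles. The authors' gene annotation and counting strand are not given in sources used here. Values in each column are whole multiples of 1 step for 100% of genes (tolerance 1e-06), so whole reads were recovered. All genes have 10 or more reads in their highest library; this precedes the analysis, so genes below it are not analysed here.

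limma 3.58.1 (R 4.3.3; trend, 4 residual degrees of freedom, pseudocount 1) was fitted to log2 values of all 11644 genes, two-sided, with Benjamini-Hochberg adjustment, and tested on simulated data. Alternatives were edgeR 4.0.16 quasi-likelihood and DESeq2 1.42.0 on recovered reads, other scalings, pseudocounts of 0.5 and 5, a minimum mean of 100, a replicate block, leaving out each library, and other role assignments. Libraries of a group differed by more than counting noise (chi-square per degree of freedom 9.29 or more). Locations, exonic lengths and overlaps come from GENCODE mouse release 21, and promoter sequences from RefSeq.

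The members, roles and lists were chosen with earlier results of these data known, so no list is independent support. Library values are given for the 14 smallest adjusted p-values, for genes called against their group's median, and for 10 genes whatever their values (Cenpa, Cenpe, Ndc80, Incenp, Kif11, Kifc1, Kif18a, Kif5b, Kif3a and Kif1b); of each partner list the 3 smallest adjusted p-values are named. Zwilch, Kntc1, Klc2, Rhot2, Kifap3, Nuf2 and all ratios between genes were chosen after their values were seen. Kif2b, Kif1a, Kif5c, Kif6, Kif12, Kif21a, Kif26a, Kif26b, Kif27 and Kif28, listed by role, had no row under these names and are not analysed here.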

Additional observations from a re-analysis of the deposited data

How the results depend on the processing

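No called gene changed sign under the alternatives run, but 3 uncalled genes did: Cenpq (-0.01) was 0.01 without DMSO library 2 and 0.08 without inhibitor library 1, and without inhibitor library 3 Kif20b (-0.08) was 0.03 and Kif7 (-0.16) 0.08. Of 849 comparisons of a gene with its value under an alternative, 795 kept their side of the threshold, 43 lost a call and 11 gained one; 27 of 33 falls, 4 of 7 rises and 15 of 21 uncalled genes kept theirs under all alternatives run. The 33 falls were 28 to 34 when each library was left out in turn, and the 7 rises 4 to 7. The 1 mitotic kinesin that rose became 0 with edgeR, 0 with DESeq2 and 0 with TMM scaling, and 0 to 1 with a library left out, where the 1 was Kifc5b without DMSO library 3. Leaving out libraries gave 3 to 6 falls and 2 to 5 rises for transport kinesins, 1 to 2 falls for Cenpj and Cenpv together, and 0 to 3 falls in the list of light chains, adaptors and dynein, which had 4 falls with TMM scaling. The mitotic minus transport difference of -0.20 was -0.36 with a minimum mean of 100, -0.25 with a pseudocount of 5, and -0.147 with Kif2a and Cenpe counted as mitotic and Kif21b as transport. The minimum of 100 left out the transport kinesins Kifc2 (log2 fold change -1.64) and Kif5a (-0.57). The other role assignment added Kif21b (-0.86) to the transport set. The cause of the other shifts was not tested.

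Replicate numbers were not taken to pair the libraries: deviations of same-numbered libraries correlated at 0.247, 0.0735 and 0.263, not all above 0.1, although each library correlated best with its own number, a hint from the data and not the design. With a replicate block, 36 genes fell and 8 rose; Kif20a, Kif5a and Ndc80 (adjusted p = 0.0333, 0.0473 and 0.0319) joined the falls and Kifc5b (0.0280) the rises, 2 mitotic kinesins rose, and 4 genes of the adaptor and dynein list fell. Kifc2, with 41 reads in DMSO and 10 with the inhibitor, is the gene that depth limits most in the inhibitor libraries.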
